A study of Mus musculus with 6 samples.

Results

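Carmn, the Mir143 and Mir145a precursors, and the transcription factors Myocd, Srf and Mef2c were followed in mouse aorta. These 6 genes were chosen by name from earlier results on the same libraries, in which Carmn, Mir143 and Mir145a were among the genes lowest in ApoE. Each was matched by its Ensembl identifier, and all 6 were found among the 27815 genes of the files and passed the filter on low values, at least 1 FPKM in at least 2 libraries, that left 14074 genes for testing. Their ApoE values are therefore given as a description with no test, whereas the comparison of CKD with Ctrl was tested.

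All 3 groups were C57BL/6 mice, and each was represented by 2 libraries of polyadenylated RNA from aorta. Ctrl was wild type and 2 months old by its label. ApoE was ApoE-/- and was fed chow until 16 months, so that age and genotype differed together from Ctrl, and its model is calcification within atherosclerotic lesions. CKD had the poles of the left kidney removed from 8 weeks of age and the right kidney removed after 1 week of recovery, followed by 4 weeks on food with 2% phosphate and drinking water with 0.45% NaCl, a model of calcification in the medial layer. The age label of CKD also reads 16 months, which conflicts with that schedule, so its age is uncertain. No label says that the 2 libraries of a group were separate animals, and pools of 4 are mentioned for miRNA sequencing, so SDs and p-values reflect how these libraries vary, and that variation may be technical.

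The contractile program of vascular smooth muscle is driven by serum response factor (SRF), which binds the CArG box of contractile gene promoters and recruits myocardin (Myocd), a coactivator largely restricted to smooth and cardiac muscle. MEF2C is a MADS-box factor related to SRF that takes part in heart and vessel development. Carmn is a long noncoding RNA enriched in smooth muscle, and the hairpins of miR-143 and miR-145 lie next to it. Both miRNAs are abundant in contractile smooth muscle, and their known targets include regulators of the switch away from the contractile state. The values here are reads over the precursor genes in polyadenylated RNA and do not measure the mature miRNAs.

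Carmn and both precursors were highest in Ctrl, about 2-fold lower in CKD and 71.4-fold to 96.4-fold lower in ApoE. Carmn (ENSMUSG00000097324; GRCm38 chromosome 18, 61649625 to 61665537, minus strand, a lincRNA) had Ctrl values of 201 and 161 FPKM, CKD values of 87.0 and 95.9, and ApoE values of 2.59 and 1.61. FPKM corrects the reads of a gene for its exon length and for library depth. No library of any group overlapped those of another. Group means were 181 ± 28.9, 91.5 ± 6.27 and 2.1 ± 0.694 FPKM (SD, n = 2 libraries each), so that ApoE retained 1.16% and CKD 50.5% of the Ctrl mean. The ApoE values rest on 95 and 55 reads, recovered from the steps of the FPKM values, against 7723 and 5598 reads in Ctrl.

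Mir143 (ENSMUSG00000065445; chromosome 18, 61649196 to 61649258, minus strand) gave 1744 and 1412 FPKM in Ctrl, 853 and 790 in CKD, and 19.9 and 12.8 in ApoE. ApoE was thus the lowest group by a wide margin and CKD lay between. The means were 1578 ± 234, 822 ± 44.7 and 16.4 ± 5.03 FPKM (SD, n = 2), and ApoE retained 1.04% of Ctrl. The feature is 63 bases long, so 1 read is worth about 1 FPKM, and the ApoE values stand for 20 and 12 reads, with exact Poisson 95% intervals of 12.2 to 30.9 and 6.20 to 20.96 that cover counting error only.

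Mir145a (ENSMUSG00000065592; chromosome 18, 61647825 to 61647894, minus strand) stood at 1750 and 1482 FPKM in Ctrl, 803 and 801 in CKD, and 25.1 and 20.2 in ApoE. Its order of groups was that of Mir143, again with no overlap. The means were 1616 ± 190, 802 ± 1.17 and 22.6 ± 3.48 FPKM (SD, n = 2), and the ApoE libraries held 28 and 21 reads. Read counts over features of 63 and 70 bases depend on how a read that only partly overlaps is counted, so these levels are compared across libraries and not with longer genes.

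Myocd (ENSMUSG00000020542; chromosome 11, 65176561 to 65269989, minus strand) stood at 14.4 and 11.9 FPKM in Ctrl, 8.14 and 14.4 in CKD, and 0.820 and 0.450 in ApoE. The CKD libraries overlapped the range of Ctrl, and both ApoE libraries lay far below all others. The means were 13.2 ± 1.83, 11.3 ± 4.43 and 0.635 ± 0.262 FPKM (SD, n = 2), so that ApoE retained 4.83% and CKD 85.7% of Ctrl.

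Srf (ENSMUSG00000015605; chromosome 17, 46548329 to 46556175, minus strand) stood at 32.9 and 23.0 FPKM in Ctrl, 17.4 and 24.9 in CKD, and 14.0 and 12.7 in ApoE. CKD overlapped Ctrl, and the ApoE libraries were the lowest. The means were 28.0 ± 6.96, 21.2 ± 5.28 and 13.4 ± 0.869 FPKM (SD, n = 2), and ApoE retained 47.8% of Ctrl. Mef2c (ENSMUSG00000005583; chromosome 13, 83504034 to 83667080, plus strand) stood at 6.63 and 6.70 FPKM in Ctrl, 3.38 and 5.19 in CKD, and 3.05 and 2.37 in ApoE. Its groups did not overlap, although CKD 1 lay only just above ApoE 1. The means were 6.67 ± 0.0495, 4.29 ± 1.28 and 2.71 ± 0.483 FPKM (SD, n = 2), and ApoE retained 40.6% of Ctrl.

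**Figure D1:**
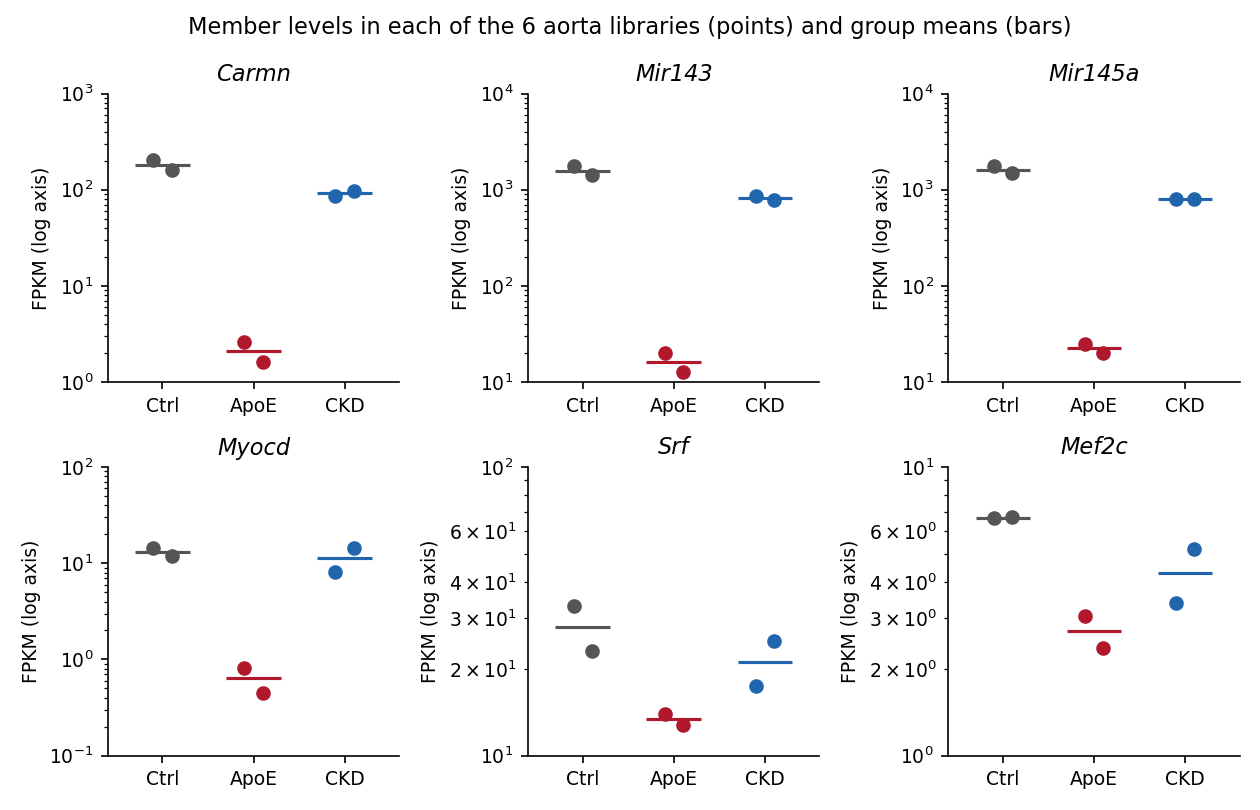
FPKM of the 6 genes on log axes, with 1 point per library, a horizontal bar at the mean of each group and a separate axis range in each panel. Carmn, Mir143 and Mir145a lie near 1% of Ctrl in ApoE, Myocd at 4.83%, and Srf and Mef2c at 47.8% and 40.6%, while the CKD points overlap Ctrl for Myocd and Srf only.

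On the log2 scale of FPKM + 1, the differences of ApoE from Ctrl were -6.53 for Mir143 (SE 0.25), -6.10 for Mir145a (0.19), -5.89 for Carmn (0.21), -3.12 for Myocd (0.27), -1.05 for Mef2c (0.20) and -0.99 for Srf (0.23). The differences of ApoE from CKD, which use the same ApoE libraries, were -5.60, -5.09, -4.92, -2.87, -0.50 and -0.61 in the same order. Mir143, Mir145a and Carmn were the 3 lowest of all tested genes in the first of these comparisons, which is how they came to be chosen, and Myocd ranked 96, Mef2c 1492 and Srf 1632. In both comparisons the ApoE libraries of all 6 members lay below the others without overlap, as did those of 43.0% of tested genes against Ctrl and 38.0% against CKD. At a limma adjusted p below 0.05, 44.1% of tested genes were called in ApoE against Ctrl, 19.8% higher and 24.3% lower, and 39.7% in ApoE against CKD. With a pseudocount of 0.1 in place of 1, the Myocd difference of ApoE from Ctrl was -4.21 and that of Carmn -6.39. That of Mir145a lay between -6.25 and -5.91 over 13 alternative fits, so the order of Carmn and Mir145a depends on the pseudocount. With the mean level of 20 white adipocyte genes as a covariate, the Srf difference of ApoE from Ctrl shrank to -0.14, that of Mef2c to -0.56 and that of Myocd to -2.17. That mean log2 level was 3.96 and 5.04 in Ctrl and 6.67 and 6.74 in ApoE. The groups did not overlap in it, so adipocyte level and group cannot be told apart. Without CKD 2, the Mef2c difference of ApoE from CKD was -0.25.

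In the tested comparison, CKD against Ctrl, 1 of the 6 genes passed, where 5.44% of all tested genes did, 2.23% higher and 3.21% lower. Both CKD libraries lay below both Ctrl libraries for 4 of the 6, Carmn, Mir143, Mir145a and Mef2c, as they did for 35.1% of all tested genes. Mir145a was lower (log2 difference -1.005, SE 0.19, adjusted p = 0.0455), in both CKD libraries. Carmn (-0.97, SE 0.21, adjusted p = 0.0551) and Mir143 (-0.93, SE 0.25, adjusted p = 0.0800) had differences of the same size that missed the threshold. Mef2c (-0.56, adjusted p = 0.130), Srf (-0.39, adjusted p = 0.314) and Myocd (-0.25, adjusted p = 0.574) also missed it, and the last of these was the only one of the 6 with a CKD library close to the highest Ctrl level. Over 13 alternative fits, among them leaving out each library, the Mir145a difference lay between -1.12 and -0.85. Its call ended without any 1 library other than CKD 2. Without CKD 2 the Mef2c difference was -0.81. In this comparison, leaving out any 1 library other than CKD 2 ended nearly all calls over all tested genes, and leaving out CKD 2 added many. A call that ended in this way, here or for the genes below, therefore does not set a gene apart.

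Marker genes of several cell types also differed between groups. Of all tested genes, limma called 19.8% higher and 24.3% lower in ApoE against Ctrl, and 2.23% and 3.21% in CKD against Ctrl. The 4 defining smooth muscle genes Acta2, Myh11, Tagln and Cnn1 were all called lower in ApoE than in Ctrl, and none was at 0. None of the 4 was called by limma in CKD against Ctrl, where 3 had an unadjusted p below 0.05. Their summed level was 6950 to 7751 FPKM in Ctrl, 3155 to 5604 in CKD and 523 to 594 in ApoE. All 12 macrophage genes were higher in ApoE than in Ctrl and 6 of 12 in CKD, with sums of 502 to 551, 8149 to 12987 and 1113 to 1763 FPKM in Ctrl, ApoE and CKD. Of 20 white adipocyte genes, 14 were higher and 1 lower in ApoE and 1 was higher in CKD, with sums of 717 to 1585, 4893 to 5045 and 3395 to 9727 FPKM. Of 9 fibroblast genes, 6 were lower in ApoE and 1 in CKD, with sums of 1978 to 2299, 799 to 1253 and 1213 to 1736 FPKM. Of 5 tested mesothelial genes, 4 were higher in ApoE and 5 in CKD, and the 6 listed summed to 0.456 to 1.06, 5.88 to 9.88 and 47.4 to 61.1 FPKM, with 2 and 1 of them at 0 in the Ctrl libraries. Of 6 pericyte genes, 5 were lower in ApoE, with sums of 436 to 437, 101 to 159 and 266 to 317 FPKM. Of 10 endothelial genes, 3 were higher and 2 lower in ApoE, near the shares of all tested genes. Their sums were 356 to 427 FPKM in Ctrl, 331 to 343 in ApoE and 228 to 333 in CKD. Mitochondrial genes held 3.13% to 4.19% of reads in Ctrl, 9.66% to 10.9% in ApoE and 5.70% to 9.99% in CKD. None of the macrophage, adipocyte, fibroblast or pericyte genes was at 0 in any library, and the part of these cell types and of the mitochondrial share in the members' values was not tested. The mean adipocyte gene level did not overlap between Ctrl and ApoE, so as a covariate it cannot be told apart from that group difference. With this covariate, the share of all tested genes called in ApoE against Ctrl went from 44.1% to 10.9%. Of 82 such calls among the list genes, neighbours and named precursors that follow, 46 ended. Those named here were Ablim3, Ace, Actb, Actg1, Afap1l1, Ago1, Ago3, Bcl2, Camk2d, Ccn2, Csnk1a1, Dicer1, Egr1, Fli1, Fosb, Fscn1, Hey2, Igf1r, Il17b, Malat1, Mef2a, Mef2d, Mir22hg, Mir5125, Mrtfa, Myh6, Nr4a1, Pcyox1l, Pdgfrb, Pgm5, Prdm6, Smarca4 and Vcl. In whole aorta, fewer smooth muscle cells and less of a transcript in each cannot be told apart.

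Set against Myh11, the smooth muscle myosin heavy chain, the 6 genes separated into sets. Carmn amounted to 17.9% and 15.5% of Myh11 FPKM in Ctrl, 15.7% and 12.7% in CKD, and 4.31% and 3.11% in ApoE. The ApoE ratios were 0.258 and 0.187 of the Ctrl mean ratio for Carmn, 0.228 and 0.171 for Mir143, and 0.280 and 0.262 for Mir145a, so that these 3 were lower than the fall of Myh11 itself. For Myocd the ApoE ratios were 1.13 and 0.719 of the Ctrl mean ratio, on either side of it. For Srf they were 9.05 and 9.60, and for Mef2c 8.22 and 7.43, so that these transcripts were higher per unit of Myh11 in ApoE. In CKD the ratios of all 6 lay between 0.711 and 1.57 of Ctrl.

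The reference gene changed the position of Myocd in ApoE. Its mean ratio was 0.923 of Ctrl against Myh11, 0.587 against Acta2, the smooth muscle actin, and 0.481 against the sum of 24 contractile genes. Carmn remained low against each, with mean ratios of 0.222, 0.141 and 0.116 of Ctrl. Srf stayed above 1 against each, at 9.32, 5.91 and 4.84. These ratios use the contrast by which the genes were chosen and carry no test.

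**Figure D2:**
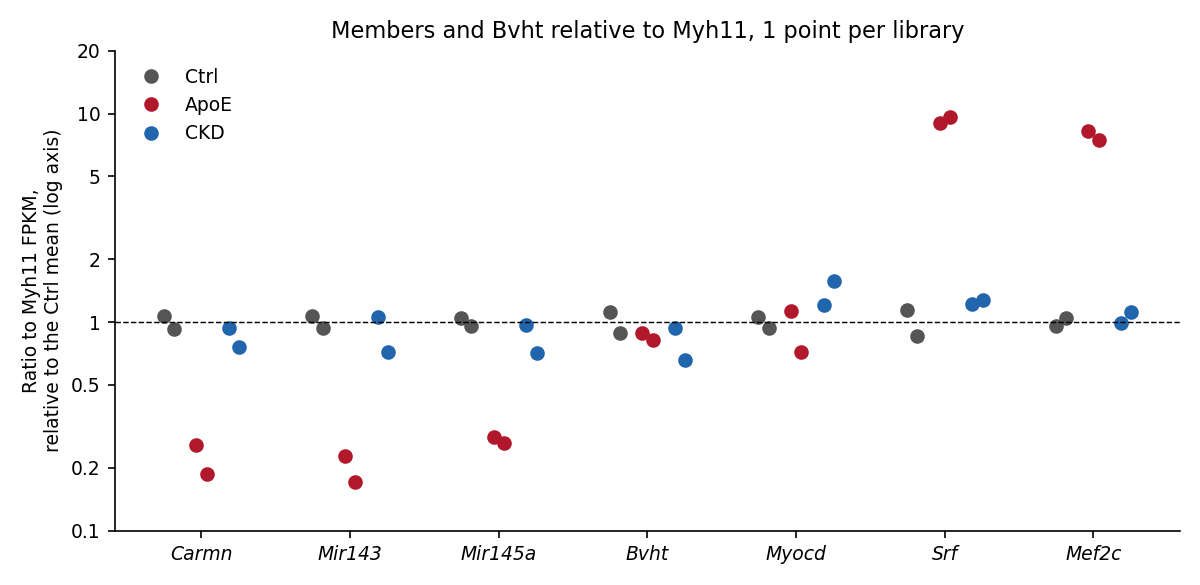
Ratio of each gene's FPKM to that of Myh11, divided by the mean ratio in Ctrl, on a log axis with 1 point per library. In ApoE the Carmn, Mir143 and Mir145a points lie between 0.171 and 0.280, Bvht and Myocd between 0.719 and 1.13, and Srf and Mef2c between 7.43 and 9.60.

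The reads of Mir143 per Carmn read lay between 0.211 and 0.268, with only 20 and 12 Mir143 reads in ApoE. Mir143 held 0.237 and 0.241 reads per Carmn read in Ctrl, 0.268 and 0.225 in CKD, and 0.211 and 0.218 in ApoE, although the mean FPKM of Carmn differed 86.3-fold between Ctrl and ApoE. Per Carmn read, Mir145a held 0.264 and 0.280 reads in Ctrl, 0.280 and 0.254 in CKD, and 0.295 and 0.382 in ApoE. Mir145a reads per Mir143 read were 1.11 and 1.17 in Ctrl, 1.05 and 1.13 in CKD, and 1.40 and 1.75 in ApoE, where both counts are small. Mef2c and Srf changed place with Carmn and Myocd. In Ctrl the order of FPKM was Carmn (181), Srf (28.0), Myocd (13.2) and Mef2c (6.67), and CKD had the same order. In ApoE it was Srf (13.4), Mef2c (2.71), Carmn (2.1) and Myocd (0.635), with the Mef2c and Carmn libraries overlapping.

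Across the 6 libraries, which share the group structure, log2 levels of Carmn had a Pearson correlation of 0.999 with Mir143, 1.000 with Mir145a and 0.987 with Myocd, and of 0.887 with Srf and 0.871 with Mef2c. Srf and Mef2c correlated at 0.933 with each other. Outside the cluster, the genes with the most similar pattern to Carmn were Slc4a3, a bicarbonate exchanger, at 15.8 FPKM in Ctrl, 4.18 in ApoE and 12.8 in CKD, Smtn (252, 21.5 and 161 FPKM), which encodes the smooth muscle protein smoothelin, and Rhobtb1 (50.3, 2.09 and 29.3 FPKM). Ldb3, Sptan1 and Flna followed. Myocd was most like Id4 (25.4, 3.0 and 22.1 FPKM), an inhibitor of basic helix-loop-helix factors, then Dnajb5, Tnks1bp1, Plcb4 and Flnc. Srf was most like Phf13 (6.55, 4.13 and 5.41 FPKM), then Sema3f, Snrpb, Lmna and Yipf4, and Mef2c was most like Fkbp9 (187, 68.1 and 110 FPKM), then Notch2, Gpx7, Ccdc3 and Sec24d. Such correlations were common, since 830 of 7453 genes compared (11.1%) exceeded 0.95 with Carmn, against 2.11% with Srf.

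The fall was not shared by all genes around the precursors. The window of 250 kb on each side of Mir143 held 14 annotated genes, of which 10 that were not members were tested. The end of Carmn lies 366 bases before Mir143, and 1301 bases separate Mir143 from Mir145a. Bvht (Braveheart; ENSMUSG00000098098, chromosome 18, 61639542 to 61647472), a lincRNA known from heart development, runs toward the cluster on the plus strand and ends 352 bases from Mir145a. Bvht stood at 576 and 425 FPKM in Ctrl, 239 and 228 in CKD, and 24.6 and 19.4 in ApoE. It fell in ApoE against Ctrl (log2 difference -4.44, SE 0.22, adjusted p = 0.000182) and in CKD against Ctrl (-1.08, adjusted p = 0.0483). The second call ended without any 1 of the 6 libraries, with adjusted p between 0.0547 and 0.282.

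The log2 difference of Bvht in ApoE was smaller than that of Carmn, a gap that was not tested. There were 0.867 and 0.803 Bvht reads per Carmn read in Ctrl, 0.834 and 0.723 in CKD, and 2.88 and 3.67 in ApoE. Relative to Myh11, Bvht in ApoE was 0.889 and 0.818 of the Ctrl mean ratio, where Carmn was 0.258 and 0.187. The library kit did not mark strand, and the annotated exons of Bvht overlap none of Carmn, Mir143 and Mir145a.

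Of the nearest protein-coding genes, Il17b, a cytokine gene of the interleukin-17 family upstream of Carmn, went from 5.04 and 4.58 FPKM to 0.0907 and 0.486 in ApoE, a fall of 2.19 on the log2 scale (log2 difference -2.19, adjusted p = 0.00237). It overlaps the antisense gene Gm38165, so its reads are uncertain. Pcyox1l fell in ApoE (-1.30, adjusted p = 0.00999) and in CKD (-1.95, adjusted p = 0.0274), from 11.9 and 9.89 FPKM in Ctrl to 4.41 and 3.28 in ApoE and 1.43 and 2.85 in CKD. Its CKD call ended without Ctrl 1, Ctrl 2, ApoE 1, ApoE 2 or CKD 1 (adjusted p between 0.0647 and 0.181), and its ApoE call ended without Ctrl 1 (0.0628) or ApoE 2 (0.0691). Csnk1a1, encoding casein kinase 1 alpha, fell by 0.74 in ApoE on the log2 scale (-0.74, adjusted p = 0.0119), a call that ended without Ctrl 1 (0.0701), Ctrl 2 (0.0833) or ApoE 2 (0.0594).

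Other neighbours had higher values. Ablim3 (1.47, adjusted p = 0.0310) and Afap1l1 (0.50, adjusted p = 0.0334) rose in ApoE, each losing the call without Ctrl 1 (0.132 and 0.168), Ctrl 2 (0.0825 and 0.122) or ApoE 2 (0.157 and 0.144), and Ablim3 also without ApoE 1 (0.0866). Arhgef37 rose in CKD (1.42, adjusted p = 0.0327), from 0.427 and 0.695 FPKM to 2.74 and 3.64, and that call ended without any 1 library other than CKD 2 (adjusted p between 0.0705 and 0.197). Grpel2 stood between 4.13 and 4.97 FPKM in all 6 libraries. Ppargc1b, a transcriptional coactivator gene, stood at 0.678 and 0.795 FPKM in Ctrl, 1.65 and 3.79 in ApoE and 5.12 and 2.92 in CKD, and did not pass the test in either comparison (adjusted p = 0.0501 and 0.0598).

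**Figure D3:**
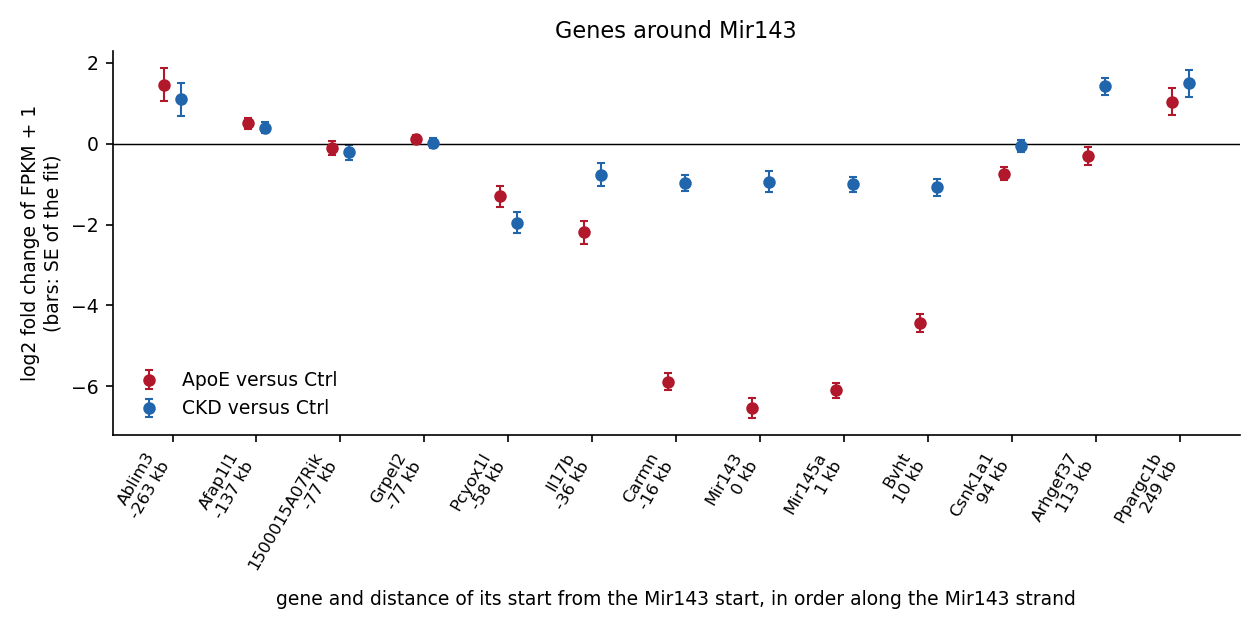
Log2 difference of FPKM + 1 from Ctrl for the 13 tested genes around Mir143, in order along its strand and labelled with the distance of each gene's start in kb, with bars for the SE of the fit. In ApoE the 4 genes from Carmn to Bvht lie between -6.53 and -4.44, Il17b at -2.19, and the other 8 between -1.30 and 1.47.

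The myocardin-related cofactors did not fall with Myocd in ApoE. Mrtfa, which binds SRF in response to actin dynamics, stood at 5.12 and 5.06 FPKM in Ctrl, 8.28 and 12.6 in ApoE, and 5.07 and 4.84 in CKD, and was higher in ApoE than in Ctrl (0.88, SE 0.19, adjusted p = 0.0146). That call ended without Ctrl 1 (0.0738) or Ctrl 2 (0.0726). Mrtfb stood between 6.74 and 8.87 FPKM in all libraries and passed in no comparison. Of the MEF2 family, Mef2d, at 42.2 and 40.9 FPKM in Ctrl, fell to 17.1 and 17.8 in ApoE (-1.21, adjusted p = 0.00122), and Mef2a from 13.2 and 14.4 to 9.40 and 7.58 (-0.65, adjusted p = 0.0168). The Mef2a call ended without Ctrl 1 (0.0753), Ctrl 2 (0.106) or ApoE 2 (0.0866). Neither passed in CKD against Ctrl, and both were lower in ApoE than in CKD, where the Mef2a call ended without ApoE 2 (0.0593).

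Among 14 ternary complex factors and repressors, which compete with or counter myocardin at SRF, 13 were tested, and 1 rose and 3 fell in ApoE against Ctrl, where 19.8% and 24.3% of tested genes rose and fell. Elk3, a ternary complex factor, went from 6.85 and 6.34 to 14.2 and 13.9 FPKM (0.98, adjusted p = 0.00569). Heyl, a Notch target and repressor, fell from 42.8 and 39.8 to 5.07 and 4.00 FPKM (-2.94, adjusted p = 0.000211). Prdm6, a repressor found in smooth muscle, fell from 20.7 and 14.5 to 6.13 and 2.83 FPKM (-1.81, adjusted p = 0.00685). Hey2, of the same family as Heyl, fell by 1.03 on the log2 scale (-1.03, adjusted p = 0.00824), a call that ended without Ctrl 1 (0.0585) or ApoE 2 (0.0577). In CKD only Heyl passed, at 21.2 and 25.1 FPKM (-0.81, adjusted p = 0.0455), and that call ended without any 1 library other than CKD 2 (adjusted p between 0.0851 and 0.266). Klf4, a repressor of contractile genes and a known miR-145 target, stood at 33.3 and 25.5 FPKM in Ctrl, 21.5 and 20.2 in ApoE and 50.8 and 42.7 in CKD, and passed between ApoE and CKD alone (-1.12, adjusted p = 0.00580).

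Of 17 partners of SRF and chromatin factors, 14 were tested, and 12 fell and 1 rose in ApoE. Of all tested genes, 24.3% fell and 19.8% rose. The median log2 difference of the 14 was -1.28, against -0.07 over all tested genes. Csrp2, a LIM protein that bridges SRF and GATA factors, fell from 832 and 878 to 58.1 and 49.6 FPKM (-3.97, adjusted p = 0.000238). Fhl1 (-2.63), Tgfb1i1 (-2.21) and Csrp1 (-2.15), other LIM domain genes, followed, with adjusted p of 0.000761, 0.000599 and 0.00131. The chromatin remodeller Smarca4 rose by 0.58 (adjusted p = 0.0217), a call that ended without Ctrl 1 (0.151), Ctrl 2 (0.0651) or ApoE 2 (0.107). None of the 14 passed in CKD, where limma called 5.44% of all tested genes and 2 of the 14 had an unadjusted p below 0.05, and Csrp2 stood at 624 and 884 FPKM there.

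The contractile genes with known CArG boxes fell together in ApoE. All 24 were tested, and 24 were lower in ApoE than in Ctrl, where 24.3% of all tested genes were, with a median log2 difference of -3.18. With the adipocyte covariate 18 of the 24 passed, at a median of -2.55. The largest falls were those of Itga8 (414 and 440 to 18.9 and 14.1 FPKM, log2 difference -4.62, adjusted p = 0.000414), an integrin subunit, and Myh11 (1123 and 1039 to 60.0 and 51.6 FPKM, -4.25, adjusted p = 0.0002). Jph2 (-3.91) and Cnn1 (-3.86) came next. Against CKD, 23 of the 24 were lower in ApoE, with Pgm5 the exception (-1.03, adjusted p = 0.0783, and 0.00573 without CKD 1), where 21.2% of tested genes were lower.

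In CKD against Ctrl, 3 of the 24 fell, where 3.21% of all tested genes did, with a median of -0.79 over the list against -0.03 over all tested genes. Des, the muscle intermediate filament desmin, fell from 25.2 and 22.6 to 11.2 and 8.80 FPKM (-1.19, adjusted p = 0.0288). Tpm1 fell from 299 and 276 to 129 and 170 FPKM (-0.95, adjusted p = 0.0494), and Synpo2 from 65.1 and 59.3 to 32.7 and 38.9 FPKM (-0.78, adjusted p = 0.0483). Leaving out 1 library put the list's median between -0.998 (without CKD 2) and -0.53 (without CKD 1). With a pseudocount of 0.1, 1 of the 24 passed, where 4.63% of all tested genes did. In a fit of only the 4 libraries compared none of the 24 passed, so the calls of Des, Tpm1 and Synpo2 ended. In that fit 0.00711% of all tested genes passed. By the limma fit of all 6 libraries, 18 of the 24 had an unadjusted p below 0.05.

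SRF binds the CArG box in the promoter of its own gene, and the letters show how the box sits there. In the RefSeq promoters of GRCm38.p6, 250 bases before each transcript start, both strands were searched for the CArG box by name, allowing no mismatch. Of 32851 promoters, 482 (1.47%) held it. Of the members only Srf and Mef2c had promoters in that table, 4 in all, and the single Srf promoter alone held the box. By gene it was in a promoter of 1.62% of the 27025 genes, in 3 of 19 contractile genes (15.8%) and in 2 of 14 early response and cytoskeletal genes (14.3%), Egr2 and Actg1. Near matches, with 1 G or C among the 6 inner letters, are not counted or marked here. They lay in 7.25% of all promoters and 17.4% of contractile promoters, those of Acta2 and Myl9 among them. The Srf promoter holds 2 boxes, 82 and 62 bases before the start, and is shown with Myl9, a myosin light chain gene, and Vcl, the vinculin gene, which hold 1 each. The letters run 5′ to 3′ on the gene's strand, leave out annotated exon bases, and have the CArG box in capitals.
Srf, chr17:46556176-46556412, minus strand: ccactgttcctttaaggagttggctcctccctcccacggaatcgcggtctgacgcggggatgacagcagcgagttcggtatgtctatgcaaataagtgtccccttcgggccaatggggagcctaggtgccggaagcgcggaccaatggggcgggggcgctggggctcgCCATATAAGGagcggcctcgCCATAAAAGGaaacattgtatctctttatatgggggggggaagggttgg
Myl9, chr2:156775214-156775419, plus strand: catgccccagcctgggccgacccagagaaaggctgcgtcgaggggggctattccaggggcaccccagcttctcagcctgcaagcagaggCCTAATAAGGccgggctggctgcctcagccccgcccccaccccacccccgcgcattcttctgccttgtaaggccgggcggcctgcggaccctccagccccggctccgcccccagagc
Vcl, chr14:20929148-20929397, plus strand: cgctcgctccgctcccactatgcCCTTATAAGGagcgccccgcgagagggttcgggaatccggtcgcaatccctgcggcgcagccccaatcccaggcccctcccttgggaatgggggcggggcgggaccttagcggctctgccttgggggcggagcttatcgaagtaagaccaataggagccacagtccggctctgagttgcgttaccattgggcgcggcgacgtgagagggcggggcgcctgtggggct

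A match is a description of letters and does not show binding. The gene with 2 boxes, Srf, retained 47.8% of its Ctrl level in ApoE. Of the others shown, Myl9 fell from 2651 and 2486 to 292 and 242 FPKM (-3.27, adjusted p = 0.000427), and Vcl from 61.2 and 54.4 to 15.4 and 11.9 FPKM (-2.01, adjusted p = 0.00239).

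The immediate early and cytoskeletal targets of SRF, which respond to growth and actin signals, moved in both directions. Of 20 tested, 7 fell and 4 rose in ApoE against Ctrl, with a median of -0.42, where 24.3% of all tested genes fell and 19.8% rose. Flna (1202 and 1092 to 173 and 136 FPKM, -2.90, adjusted p = 0.000396), encoding filamin A, and Dstn (1447 and 1422 to 225 and 175 FPKM, -2.85, adjusted p = 0.00116), encoding the actin severing protein destrin, fell furthest. Fosb (-2.36, adjusted p = 0.00575), Nr4a1 (-1.94, adjusted p = 0.0417), Ccn2 (-1.73, adjusted p = 0.00858) and Egr1 (-1.37, adjusted p = 0.00787) fell as well. The Nr4a1 call ended without any 1 library other than ApoE 1, with adjusted p between 0.0642 and 0.177, and that of Ccn2 without Ctrl 2 (0.0554) or ApoE 2 (0.0618). The nonmuscle actins rose, Actb from a mean of 628 to 1006 FPKM (0.68, adjusted p = 0.0389) and Actg1 from 273 to 457 (0.75, adjusted p = 0.0256), as did Cfl1, the nonmuscle cofilin (1.34, adjusted p = 0.00347), and Egr2 (2.2, adjusted p = 0.000612). In CKD only Egr2 passed, at 2.09 and 3.02 FPKM against 0.654 and 0.933 (0.98, adjusted p = 0.0453), and that call ended without any 1 of the 6 libraries, with adjusted p between 0.0529 and 0.257. The Actb and Actg1 calls ended without any 1 of the Ctrl and ApoE libraries, with adjusted p between 0.130 and 0.233 for Actb and between 0.0866 and 0.173 for Actg1.

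Among 11 tested targets and inducers of MEF2, 2 rose and 3 fell in ApoE, with a median of 0.02, shares near the 19.8% and 24.3% of all tested genes. In CKD 2 of the 11 rose, where 2.23% of all tested genes did. Ppargc1a, a coactivator of mitochondrial genes that is abundant in brown fat and heart, went from 0.419 and 0.832 FPKM to 13.2 and 8.23 in CKD (2.83, adjusted p = 0.0145). Myh6, the cardiac myosin heavy chain, rose in CKD from a mean of 0.285 to 3.10 FPKM (1.67, adjusted p = 0.0213). Both calls ended without any 1 library other than CKD 2, with adjusted p between 0.0544 and 0.106 for Ppargc1a and between 0.0581 and 0.131 for Myh6. Beside these, 6 brown adipocyte genes summed to 102 to 267 FPKM in Ctrl and 411 to 1200 in CKD, with none of the 6 called by limma and 3 at an unadjusted p below 0.05, and 7 cardiomyocyte genes to 7.85 to 8.13 and 28.8 to 34.5 FPKM, with 3 of 6 tested called higher and 1 gene at 0 in each CKD library. Their part in the 2 rises was not tested.

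**Figure D4:**
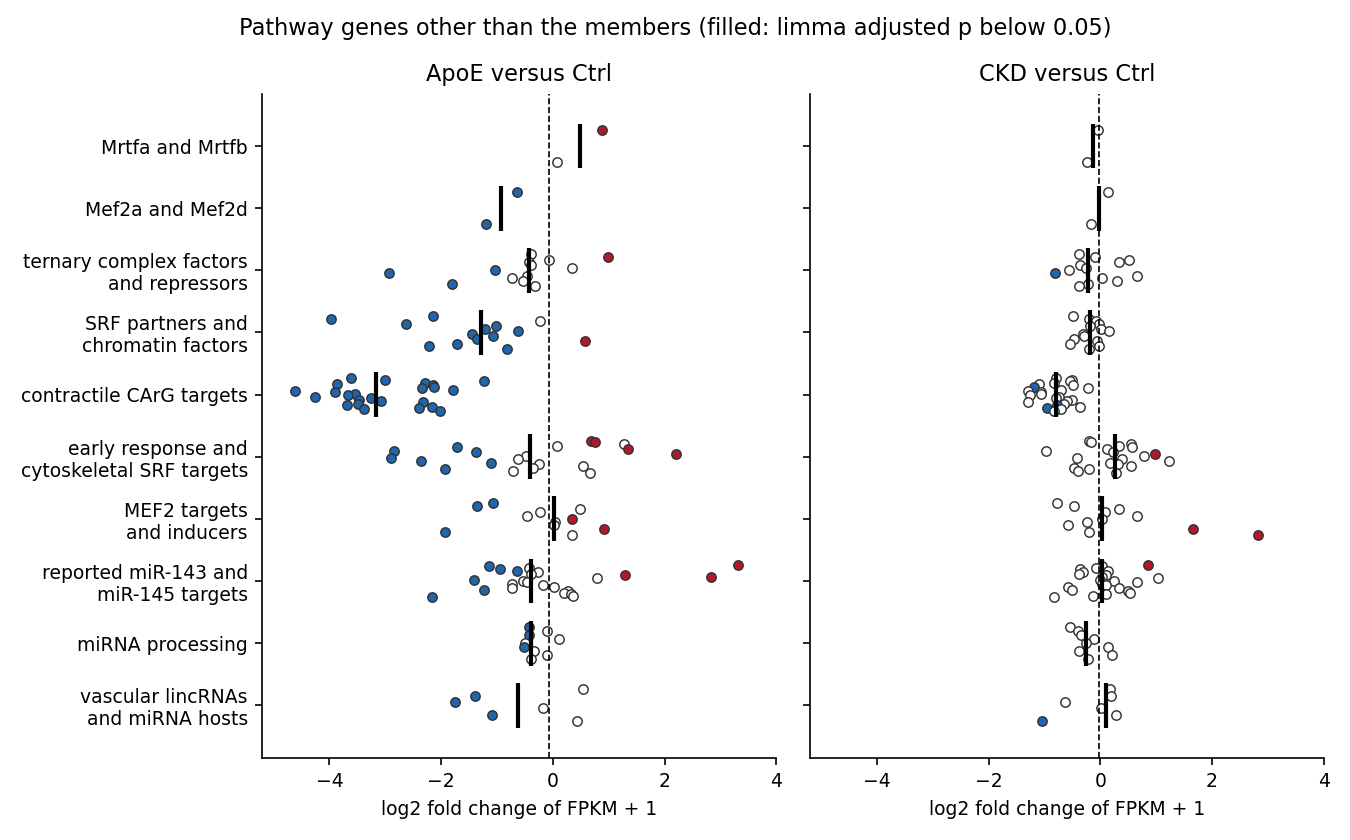
Log2 difference of FPKM + 1 for the tested genes of 10 lists, members left out, in ApoE and CKD against Ctrl, with 1 point per gene, filled where the limma adjusted p was below 0.05, a thick bar at each list's median and a dashed line at the median of all tested genes. All 24 contractile genes are filled and lie left of the line in ApoE, at a median of -3.18, and 3 are filled in CKD, at a median of -0.79.

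Messenger RNAs reported as targets of miR-143 or miR-145 did not move one way where the precursors were lowest. Of 25 listed, 23 were tested, and in ApoE against Ctrl 3 rose, 6 fell and 14 did not pass, with a median of -0.40. Of all tested genes 19.8% rose and 24.3% fell, so that the count of falls was near the background. Abca1, the cholesterol efflux transporter, rose from 6.88 and 7.99 to 80.1 and 86.4 FPKM (3.32, SE 0.15, adjusted p = 0.000173). Fscn1, the actin bundling protein fascin, rose from 1.06 and 2.72 to 15.8 and 22.2 FPKM (2.83, SE 0.31, adjusted p = 0.00137), and Fli1, an ETS factor of blood and endothelial cells, rose by 1.29 (adjusted p = 0.000883). The macrophage genes given above were higher in the same libraries, and their part in these rises was not tested.

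The 6 falls included Vcan, a large matrix proteoglycan, from 18.8 and 21.1 to 4.19 and 3.22 FPKM (-2.16, adjusted p = 0.000650), and Igf1r, a growth factor receptor, from 7.84 and 7.92 to 2.59 and 2.09 FPKM (-1.41, adjusted p = 0.00164). Pdgfrb (-1.23), Ace (-1.15), Bcl2 (-0.94) and Camk2d (-0.65) fell by less. The Ace call ended without any 1 of the Ctrl and ApoE libraries (adjusted p between 0.107 and 0.135), that of Bcl2 without Ctrl 2 (0.0547) or ApoE 2 (0.0559), and that of Camk2d without Ctrl 1 (0.0888), Ctrl 2 (0.0849) or ApoE 2 (0.0634). Klf4 (-0.46, adjusted p = 0.0800), Klf5 (-0.74, adjusted p = 0.0971) and Elk1 (-0.40, adjusted p = 0.0509), the targets most often named in smooth muscle, had lower values that did not pass. In CKD against Ctrl only Abca1 passed, at 15.5 and 12.9 FPKM (0.85, adjusted p = 0.0392), and the median was 0.03. That call ended without any 1 library other than CKD 2, with adjusted p between 0.0851 and 0.262.

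**Figure D5:**
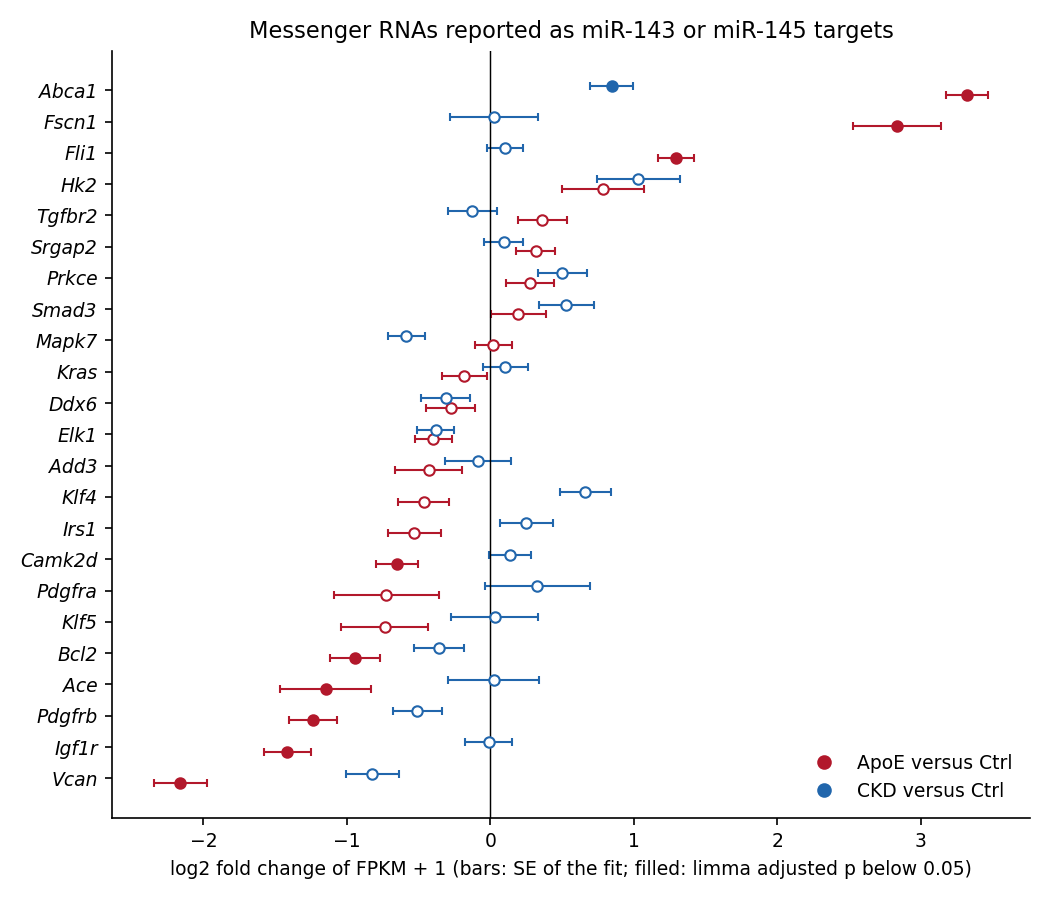
Log2 difference of FPKM + 1 from Ctrl for the 23 tested targets, ordered by the ApoE value, with bars for the SE of the fit and filled points where the limma adjusted p was below 0.05. The ApoE points run from -2.16 (Vcan) to 3.32 (Abca1), with 3 filled above 0 and 6 below, and the CKD points have 1 filled, Abca1 at 0.85.

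The genes that make and load miRNAs varied little beside the precursors. Of 9 tested, 3 fell in ApoE, where 24.3% of all tested genes fell. They were Dicer1 (5.09 and 5.37 to 3.29 and 3.39 FPKM, -0.52, adjusted p = 0.0144), which cuts the hairpin, Ago1 (-0.44, adjusted p = 0.0423) and Ago3 (-0.43, adjusted p = 0.0425). None passed in CKD, where 5.44% of all tested genes did and 3 of the 9 had an unadjusted p below 0.05. Drosha, which releases the hairpin from its transcript, stood between 4.95 and 7.52 FPKM in all libraries and did not pass. The 3 calls ended without any 1 of the Ctrl and ApoE libraries, with adjusted p between 0.0536 and 0.105 for Dicer1, 0.0789 and 0.219 for Ago1, and at most 0.207 for Ago3. Of 12 other vascular lincRNAs and miRNA host genes, 6 were tested, and 3 fell in ApoE, where 24.3% of all tested genes fell. They were Mir100hg (20.8 and 18.7 to 5.59 and 4.72 FPKM, -1.76, adjusted p = 0.000420), Malat1 (-1.40, adjusted p = 0.00449) and Mir22hg (-1.08, adjusted p = 0.00527). In CKD only Neat1 passed (-1.04, adjusted p = 0.0342), a call that ended without any 1 library other than CKD 2 (adjusted p between 0.0753 and 0.230).

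Other miRNA precursor genes were counted beside Mir143 and Mir145a. The files held 352 miRNA genes, of which 136 were tested, and of the 134 that were not members 38 fell and 6 rose in ApoE against Ctrl, with a median of -0.52, where 24.3% and 19.8% of all tested genes did. In CKD 6 fell and 4 rose, near the 3.21% and 2.23% of all tested genes. Mir145a and Mir143 ranked 2 and 3 by FPKM among the tested precursors in both Ctrl libraries, below Gm23935 (2309 and 13223 FPKM), whose 2 Ctrl libraries differed several-fold. In ApoE, Mir145a ranked 4 in each library, and Mir143 ranked 6 and 9. Mir23b, next in level among the named precursors after Mir5125, fell from 60.1 and 60.7 to 1.70 and 2.73 FPKM (-4.28, adjusted p = 0.000173), on 2 and 3 reads in ApoE. In CKD it stood at 32.0 and 26.2 FPKM, on 35 and 28 reads (-1.04 against Ctrl, limma adjusted p = 0.0434). That call ended in a fit of only the 4 libraries compared (0.0734).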

How the data were processed

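The 6 deposited tables hold 1 value per gene, which the authors deposited without naming a unit. The steps between values identify them as FPKM; the design allowed for counts, and the test for normalized values was used. Of the files, 5 stack identifiers and values in 1 column, and those deposited columns were split into identifiers and FPKM. Per the submitters' processing notes, HISAT2 2.1.0, Bowtie2 2.2.3, TopHat2 and build GRCm38 were involved. For their roles, the annotation and the counter: not given in the sources used here. Symbols were matched for 27695 of 27815 identifiers and exon lengths (GENCODE M21) for 27730. By these steps 89.5% to 89.9% of values came out as whole reads (tolerance 0.05), for 14.4 to 16.6 M reads a library, 1 read in 2 kb of exon being worth 0.0300 to 0.0346 FPKM.

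Group means were fitted with limma 3.58.1 (R 4.3.3, variance trend, robust spread) to log2(FPKM + 1) in all 6 libraries. This used the 14074 genes that reached 1 FPKM in 2 or more libraries, and the fit was tested on simulated data. Fold changes on this scale understate those of low genes. P-values were Benjamini-Hochberg adjusted over all tested genes and called below 0.05. The 3 comparisons share libraries. The members and lists (10 of pathways, 12 of cell type markers) were chosen with earlier results of these data known. Named list genes were up to 4 called genes a list and comparison with the largest change and a mean of at least 5 FPKM, or the 2 most abundant where none was called; Smarca4, Mrtfb, Elk3, Egr1, Egr2, Actb, Actg1, Cfl1, Fli1, Pdgfrb, Ace, Bcl2, Camk2d, Klf4, Klf5, Elk1, Myl9, Vcl, Pgm5, Ppargc1a, Myh6, Dicer1, Ago3 and Drosha were named after their values were seen. Alternatives were pseudocount, filter, scaling, libraries fitted, replicate block, adipocyte covariate and leaving out each library.

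Reads of overlapping genes cannot be told apart, because the kit did not mark strand. This applies to Mrtfa, Mrtfb, Mef2a, Mef2d, Elk1, Elk3, Smarca4, Tagln, Smtn, Vcl, Des, Itga8, Ccn2, Actg1, Cfl1, Myh6, Ace, Bcl2, Drosha, Mir22hg, Mir100hg, Malat1, Neat1, Id4, Notch2, Ccdc3, Rhobtb1, Il17b and Afap1l1, but to none of the 6 members.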

Additional observations from a re-analysis of the deposited data

How the results depend on the processing

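The number of members called in CKD against Ctrl was 1 and became 0 with no filter, in a fit of only the 4 libraries, with the replicate block and with the adipocyte covariate, and it ranged from 0 to 2 when 1 library was left out. The number of pathway genes called in that comparison was 9 and became 0 without the filter, 0 with only the 4 libraries, 1 with the replicate block and 0 with the covariate, and ranged from 0 to 31 with 1 library left out, the 31 being without CKD 2 (6 higher and 25 lower). In ApoE against Ctrl it was 72, with 33 under the covariate and 66 under the replicate block. In ApoE against CKD it was 74, with 72 under the block. Same-numbered libraries had correlations of deviation of 0.05, -0.23 and -0.10 between groups. These values cannot show whether the numbers pair the samples. Of the members, list genes, neighbours and named precursors, 14 were called in CKD against Ctrl, Mir145a among them. All 14 lost the call with the covariate, no filter and only the 4 libraries, and 13 with the replicate block. Nearly all calls over all tested genes ended in these settings too, by the shares given above. Members aside, the covariate ended 46 of 82 calls of these genes in ApoE against Ctrl and 2 of 82 in ApoE against CKD. No value of a called gene reversed. Among members, the sign of the uncalled Myocd difference of CKD from Ctrl turned, to 0.54 with the covariate and 0.13 without CKD 1, as did that of Srf, to 0.32 with the covariate. The cause was not tested. With 2 libraries a group and 3 residual degrees of freedom, and 12 to 28 reads over each precursor in ApoE, depth and number limit the precision of these values.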

Other observations

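Among precursor genes that were not members, Mirlet7c-2 stood at 41.1 and 36.2 FPKM in Ctrl, 4.62 and 5.66 in ApoE and 52.7 and 24.8 in CKD, a fall in ApoE of 2.69 on the log2 scale (log2 difference -2.69, adjusted p = 0.00227). Mirlet7b, in the same host locus, stood at 39.6 and 31.9, 5.17 and 6.33, and 42.2 and 22.8 FPKM (-2.44, adjusted p = 0.00201). Both overlap the annotated gene Lncppara, so their reads are uncertain. Mir5125 fell less, from 235 and 211 to 92.1 and 104 FPKM (-1.18, adjusted p = 0.00526), a call that ended without Ctrl 1 (0.0550). These genes were chosen after their values were seen.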
